A study of Arabidopsis thaliana with 24 samples.

Results

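HIPP20 to HIPP27 are 8 genes of Arabidopsis thaliana that encode heavy metal-associated isoprenylated plant proteins (HIPPs), taken here from the 33055 genes of the deposited count table by their gene identifiers. HIPP22 (AT1G22990) was chosen because its transcript rises in warm-grown pistils of all 3 genotypes, and the other 7 were chosen by family name. The temperature values of HIPP22 are therefore a description and carry no test. A filter on low counts kept 7 of the 8 genes among 21312 tested, and left out HIPP27 (AT5G66110), which had 48 read counts over all libraries.

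HIPPs combine a heavy metal-associated domain, in which a pair of cysteines (the CxxC motif) binds metal ions such as copper, zinc or cadmium, with an isoprenylation signal at the end of the protein, the CaaX box, whose cysteine receives a lipid that attaches the protein to membranes. They occur in vascular plants, and members have been linked to metal homeostasis and detoxification and to responses to drought, cold and pathogens. In Arabidopsis, HIPP20, HIPP21 and HIPP22 have overlapping roles in cadmium tolerance, HIPP26 (also named FP6) interacts with the zinc-finger homeodomain factor ATHB29 and the acyl-CoA-binding protein ACBP2, and HIPP27 is a susceptibility gene for the beet cyst nematode.

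The labels name pistils as the source, although their extraction text speaks of ovules. Poly(A) RNA was sequenced from unfertilised pistils of flowers at stage 11 to 12, before anthesis, of 3 genotypes at 2 temperatures, with 4 biological replicates in each of the 6 groups and 24 libraries in all. The genotypes were wild-type Col-0, the phyb-9 mutant of the photoreceptor and temperature sensor phytochrome B (phyB), and 35S::PIF4, in which the viral 35S promoter, active in most plant tissues, drives the transcription factor PIF4. All plants grew in 21 °C days and 18 °C nights (nAT) until flowering, and then stayed there or were moved to 28 °C days and 24 °C nights (hAT). The series asks which genes of the pistil respond to hAT and how the phyB-PIF4 pathway takes part.

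The libraries held 18379748 to 30184035 counts. At nAT, the mean of PIF4 in CPM (counts scaled to a common library size, with TMM factors) was 2.11 for Col-0 and 5.93 for 35S::PIF4, and that of PHYB was 79.5 for Col-0 and 62.8 for phyB, in which a stop codon and not a loss of transcript defines the mutation. All 9 carpel and ovule markers were above 1 CPM in every group, and their sum was lower at hAT in each genotype (531 to 619 CPM at nAT and 427 to 452 CPM at hAT in Col-0, 519 to 525 and 429 to 441 CPM in phyB, 499 to 550 and 430 to 450 CPM in 35S::PIF4). The means of STK, CRC, HEC1, STY1 and SHP2 were lower at hAT in each genotype. Those of SHP1 and NTT were higher in Col-0 and 35S::PIF4, that of SPT in Col-0 and phyB, and that of INO in 35S::PIF4. The 4 Col-0 libraries at nAT differed from all others: the mean length of the genes on which their counts fell was 1612 to 1804 bases, where the other 20 libraries had 2065 to 2220, so that each result that rests on them is also given with an offset for gene length where this changes the call or moves the adjusted p across 0.05. Within phyB at hAT, replicates 1 and 2 had 41.6 and 45.5 CPM of 4 summed pollen markers and replicates 3 and 4 had 118 and 116 CPM.

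The metal-binding cysteine pair is shown for all 8 genes, as coding sequence, since it is what defines the family. Capitals mark the 2 cysteine codons, and coordinates are those of the TAIR10 assembly, read from RefSeq's copy.
HIPP20, chr1:26803824-26803835, minus strand: TGCgatggtTGT
HIPP21, chr5:5755833-5755844, plus strand: TGTgatggtTGT
HIPP22, chr1:8139423-8139434, plus strand: TGTgacggaTGC
HIPP23, chr4:18424388-18424399, plus strand: TGTgatggtTGT
HIPP24, chr4:5455856-5455867, minus strand: TGCgaaggcTGT
HIPP25, chr4:16686222-16686233, minus strand: TGTgaaggaTGC
HIPP26, chr4:18035337-18035348, plus strand: TGCgaaggtTGC
HIPP27, chr5:26430419-26430430, plus strand: TGCgaagggTGC

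Each of the 8 coding sequences held 1 such pair in frame, which began between codon 29 (HIPP27) and codon 42 (HIPP23) of 147 to 158 codons. The end of the coding sequence, stop codon included, is shown next because it encodes the CaaX box, with its cysteine codon in capitals.
HIPP20, chr1:26803322-26803336, minus strand: TGCaccgttatgtaa
HIPP21, chr5:5756729-5756743, plus strand: TGTtccatcatgtga
HIPP22, chr1:8140031-8140045, plus strand: TGCaccgttatgtga
HIPP23, chr4:18424892-18424906, plus strand: TGCtctattatgtag
HIPP24, chr4:5455123-5455137, minus strand: TGCgctatcatgtag
HIPP25, chr4:16685874-16685888, minus strand: TGTgttgttatgtga
HIPP26, chr4:18035679-18035693, plus strand: TGTgtggtcatgtga
HIPP27, chr5:26430764-26430778, plus strand: TGTaccatcatgtga

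All 8 genes had a cysteine codon at the first position of the box. The coding sequences were 52.6% to 76.8% identical in global alignments, and the closest pairs were HIPP20 with HIPP22 (76.8%), HIPP25 with HIPP26 (70.0%) and HIPP26 with HIPP27 (67.1%). None of the 28 pairs shared a stretch of 50 coding bases. HIPP21 overlapped a long non-coding RNA gene by 43 bases, in which no count fell, and HIPP27 overlapped its neighbour AT5G66100 by 38 bases on the same strand, so reads there could belong to either gene.

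HIPP22 (chromosome 1 of TAIR10 from 8139114 to 8140233, plus strand, 3 exons) was close to the detection limit at nAT and abundant at hAT in each genotype. In Col-0 at nAT the replicates had 0.0693, 0.242, 0.0674 and 0.327 CPM, which came from 1, 3, 1 and 6 counts, and at hAT they had 13.5, 12.6, 13.8 and 12.6 CPM. The lowest warm library was far above the highest control library, and the warm replicates were close to each other. In phyB the values were 0.494, 0.268, 0.554 and 0.683 CPM at nAT and 12.6, 14.8, 15.1 and 18.9 CPM at hAT. In 35S::PIF4 they were 0.421, 0.299, 0.0777 and 0.465 CPM at nAT and 18.4, 17.6, 19.99 and 20.6 CPM at hAT. Groups at nAT and hAT did not overlap in any genotype.

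**Figure D1:**
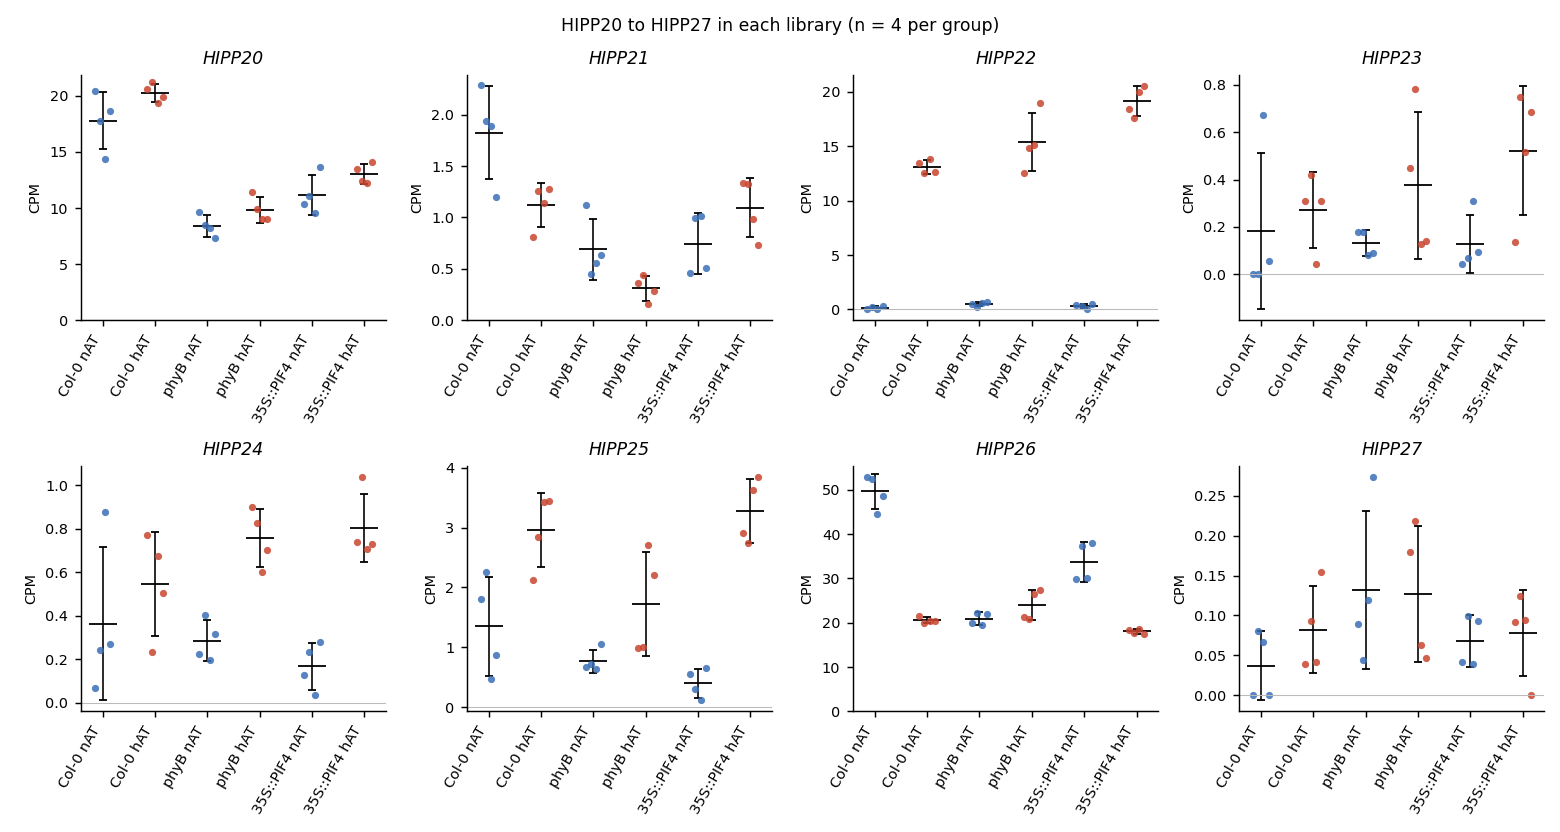
Level of each of the 8 genes in CPM (y axis, linear) in the 6 groups (x axis). Points are libraries, blue at nAT and red at hAT, and black bars give the mean and SD of 4 libraries. HIPP22 stays below 0.7 CPM in every nAT library and lies between 12.6 and 20.6 CPM in every hAT library, whereas HIPP26 is highest in Col-0 at nAT (49.6 ± 3.96 CPM).

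The fitted temperature difference of HIPP22 was 6.12 on the log2 scale in Col-0 (standard error, SE, 0.27, 69.5-fold), 4.92 in phyB (SE 0.20, 30.3-fold) and 5.93 in 35S::PIF4 (SE 0.21, 61.1-fold). Among the 21312 tested genes, these were the 90th, 14th and 70th largest rises. With the offset for gene length the Col-0 value was 6.69, and without replicate 4 of Col-0 at nAT, which held 6 of the 11 counts of its group, it was 6.70. The response in phyB was smaller than in Col-0 by 1.2 on the log2 scale (SE 0.52), and that in 35S::PIF4 differed from Col-0 by -0.19 (SE 0.53). With 11, 46 and 31 counts in the nAT groups of Col-0, phyB and 35S::PIF4, the size of each fold rests on few reads.

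HIPP22 was not chosen for its genotype differences, and these were tested. They rest on the same libraries as the rise that chose it, so their adjusted p-values are not free of that choice. At nAT HIPP22 was higher in phyB than in Col-0 (0.5 ± 0.173 against 0.176 ± 0.129 CPM, SD, n = 4 each), by 1.43 on the log2 scale (SE 0.49, adjusted p = 0.0113), although the 2 sets of libraries overlapped. HIPP22 passed the filter through its hAT libraries, and with only the Col-0 and phyB libraries at nAT it did not pass and was not tested. In 35S::PIF4 at nAT it was 0.316 ± 0.173 CPM, a difference of 0.73 (SE 0.54, adjusted p = 0.22) that became 1.25 (adjusted p = 0.0373) with the offset for gene length. At hAT the mean CPM was 13.1 ± 0.622 for Col-0, 15.4 ± 2.64 for phyB and 19.1 ± 1.38 for 35S::PIF4 (SD, n = 4). The difference of 35S::PIF4 from Col-0 was 0.55 (SE 0.13, adjusted p = 0.00291), which is below the 2-fold threshold for a call, and the libraries of the 2 groups did not overlap. That of phyB was 0.23 (SE 0.13, adjusted p = 0.196), and 0.37 (adjusted p = 0.0253) with the length offset, also under the fold threshold.

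Embryo sac markers moved with HIPP22. The sum of 7 of them, the synergid genes MYB98 and LURE1.2, the egg cell genes EC1.1 and EC1.2a, and AGL80, AGL61 and FWA, ranged at nAT from 4.72 to 6.78 CPM (Col-0), 7.72 to 8.39 CPM (phyB) and 2.53 to 3.69 CPM (35S::PIF4). The ranges at hAT were 33.7 to 35.7 CPM (Col-0), 16.6 to 23.1 CPM (phyB) and 22.4 to 26.9 CPM (35S::PIF4). LURE1.2 had no count in Col-0 at nAT. AGL80 did not move with the sum in Col-0, where its mean was 3.58 CPM at nAT and 2.51 CPM at hAT, or in phyB, with 3.12 and 1.87 CPM. Among the hAT groups the order was not that of HIPP22: Col-0 had the most embryo sac marker transcripts and the least HIPP22. Tapetum and anther markers summed to 5.41 to 6.69 CPM in Col-0 at nAT and 15.6 to 33.9 CPM in the other 5 groups, with LAP6 as the leading gene and DYT1 at 0 in all groups but 35S::PIF4 at hAT. The 4 pollen markers, each above 1 CPM in every group, summed to 32.6 to 73.2 CPM at nAT and 143 to 156 CPM at hAT in Col-0, and to 48.1 to 112 and 110 to 126 CPM in 35S::PIF4. In phyB the pollen sum was 99.9 to 104 CPM at nAT and 41.6 to 118 CPM at hAT, so that it did not move one way with HIPP22 there. The part of these tissues in the HIPP22 values was not tested, and in bulk pistils more cells of a type and more RNA per cell cannot be told apart.

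**Figure D2:**
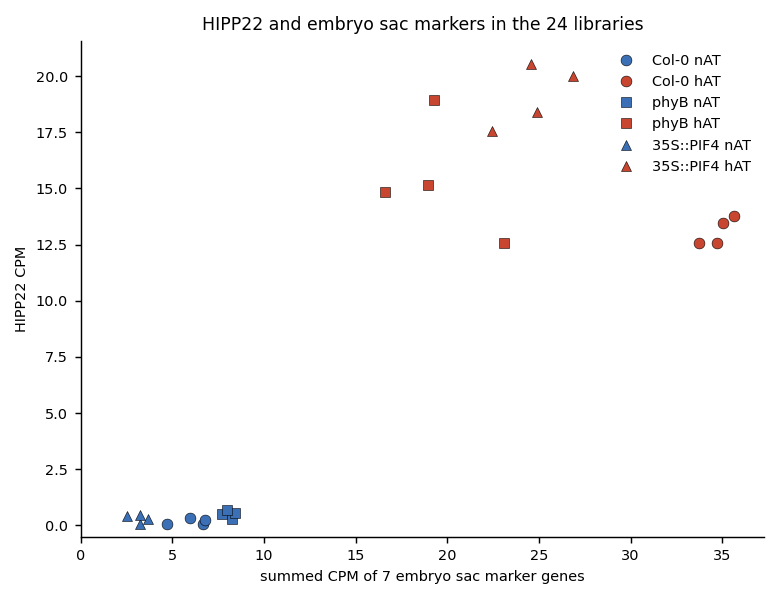
HIPP22 in CPM (y axis) against the summed CPM of 7 embryo sac marker genes (x axis) in the 24 libraries, both linear. Symbols give the genotype and colours the temperature (blue nAT, red hAT). The hAT libraries lie apart from the nAT libraries on both axes, and among them Col-0 is furthest right (33.7 to 35.7 CPM of markers) but low in HIPP22 (12.6 to 13.8 CPM).

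The 5 genes whose log2 CPM followed HIPP22 most closely over the 24 libraries, among 16703 genes with at least 5 CPM in a group, were AT2G20597, annotated as a plant thionin family protein (Pearson r = 0.975), AT5G60000, a transmembrane protein (0.965), AT1G35190, a 2-oxoglutarate and Fe(II)-dependent oxygenase (0.965), HHT1 (AT5G41040), the omega-hydroxypalmitate feruloyl transferase of suberin synthesis (0.964), and AT4G32090, annotated as an N-acetylglucosaminyltransferase family protein (0.961). These values describe libraries that share 2 temperatures and 3 genotypes. The thionin gene had no count in Col-0 at nAT and 8.23 ± 1.12 CPM at hAT. At hAT phyB had 4.88 ± 0.578 CPM and 35S::PIF4 4.41 ± 0.349 CPM, so that Col-0 was highest. HHT1 was ordered like HIPP22 at hAT, with mean CPM of 3.67 ± 0.483 (Col-0), 5.87 ± 3.11 (phyB) and 6.75 ± 0.802 (35S::PIF4), although the phyB libraries varied widely.

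Within the family, the log2 CPM of HIPP25 (r = 0.758) and HIPP24 (r = 0.734) varied with that of HIPP22 over the 24 libraries, and that of HIPP26 varied inversely (r = -0.712). HIPP20, the closest relative by sequence, did so least (r = 0.136).

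**Figure D3:**
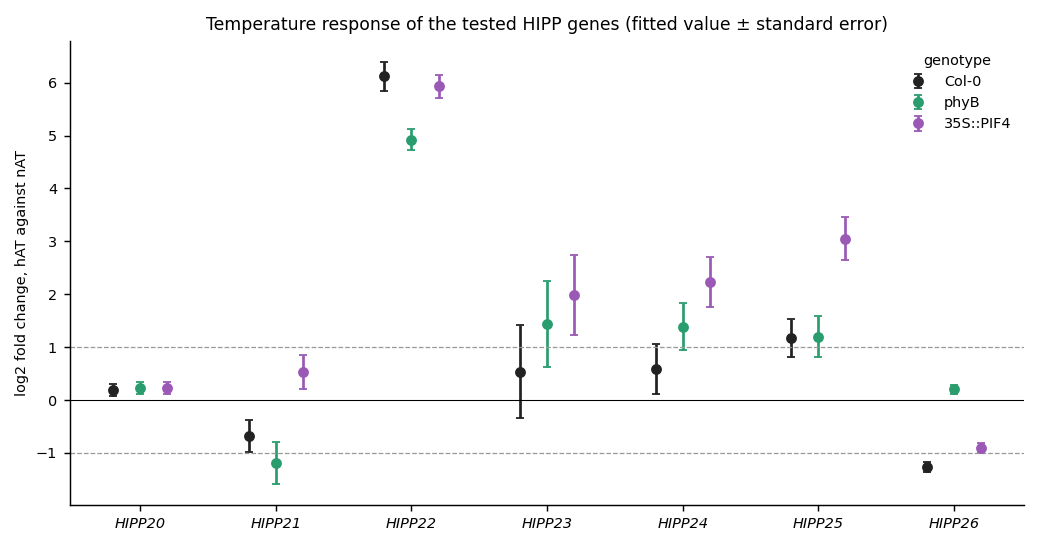
Fitted log2 fold change at hAT against nAT (y axis) of the 7 tested genes (x axis) in Col-0 (black), phyB (green) and 35S::PIF4 (purple). Bars are standard errors, and dashed lines mark the fold threshold. HIPP22 lies between 4.92 and 6.12 in the 3 genotypes, HIPP25 is above 1 in each, and HIPP26 is below -1 in Col-0 (-1.27) but near 0 in phyB (0.20).

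Calls required an adjusted p below 0.05 together with a change of at least 2-fold. Of the 6 tested genes other than HIPP22, 1 rose and 1 fell at hAT in Col-0, where 24.2% of all tested genes rose and 13.4% fell (37.6% called). In phyB 2 rose and 1 fell, against 4.63% and 3.46% of all genes (8.09% called). In 35S::PIF4 3 rose and 0 fell, against 8.5% and 2.48% (11% called). With only the 35S::PIF4 libraries HIPP23 did not pass the filter, and 2 genes were called. HIPP24, called in phyB and in 35S::PIF4, passed the filter through its hAT libraries. HIPP25 was called in each of the 3 genotypes.

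HIPP25 (AT4G35060, chromosome 4 from 16685612 to 16686818) rose at hAT in all 3 genotypes. In Col-0 it had 1.80, 2.26, 0.472 and 0.871 CPM at nAT and 2.13, 2.84, 3.43 and 3.45 CPM at hAT. These sets overlapped, and the rise of 1.17 on the log2 scale (SE 0.37, adjusted p = 0.005) dropped below the fold threshold without replicate 3 (0.90) or replicate 4 (0.996) of Col-0 at nAT. In phyB it had 0.673, 0.715, 0.633 and 1.05 CPM at nAT and 0.988, 1.00, 2.71 and 2.20 CPM at hAT. The phyB rise of 1.2 (SE 0.39, adjusted p = 0.0137) rested on replicates 3 and 4 at hAT, the libraries that also had the higher pollen markers. With replicates 1 and 2 alone it was 0.38 (adjusted p = 0.558), with replicates 3 and 4 alone 1.69 (adjusted p = 0.00128), and without replicate 3 it was 0.86 (adjusted p = 0.0974). The part of pollen or stamen tissue in this difference was not tested.

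HIPP25 changed most in 35S::PIF4, from 0.548, 0.299, 0.117 and 0.65 CPM at nAT to 2.91, 2.74, 3.63 and 3.85 CPM at hAT. The sets did not overlap, and the log2 rise was 3.05 (SE 0.40, adjusted p = 5.49e-07). It exceeded that of Col-0 by 1.88 (SE 0.57, adjusted p = 0.00484). At nAT HIPP25 was lower in 35S::PIF4 (log2 fold change against Col-0 -1.73, SE 0.47, adjusted p = 0.00182), although the 2 sets of libraries overlapped. The 35S::PIF4 libraries at nAT held 3 to 14 counts each, so these fold sizes rest on few reads. At hAT the 2 genotypes differed by 0.15 (SE 0.31, adjusted p = 0.791). The phyB response differed from that of Col-0 by 0.02 (SE 0.49, adjusted p = 0.97).

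HIPP24 (AT4G08570, chromosome 4 from 5454580 to 5456100) was near the detection limit, with 1 to 25 counts per library. It passed the filter on low counts through its hAT libraries, and did not pass with only the libraries of a genotype comparison at nAT. Its rises at hAT are therefore not free of that filter, although the calls below were also made without it. In phyB it had 0.225, 0.402, 0.198 and 0.319 CPM at nAT and 0.898, 0.828, 0.60 and 0.703 CPM at hAT, with no overlap and a rise of 1.39 (SE 0.44, adjusted p = 0.0127). With phyB replicates 3 and 4 alone at hAT the rise was 1.17 (adjusted p = 0.0971). In 35S::PIF4 it had 0.126, 0.233, 0.0388 and 0.279 CPM at nAT and 0.738, 1.04, 0.707 and 0.732 CPM at hAT, again with no overlap and a rise of 2.23 (SE 0.47, adjusted p = 0.000306). In Col-0 the difference was 0.59 (SE 0.48, adjusted p = 0.262) and became 1.46 (adjusted p = 0.0147) without replicate 3 of Col-0 at nAT, whose 0.876 CPM was above the 0.0693 to 0.272 CPM of the other 3.

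HIPP23 (AT4G39700, chromosome 4 from 18424109 to 18425109) had 0 to 18 counts per library. It rose in 35S::PIF4, from 0.0421, 0.0665, 0.311 and 0.0929 CPM to 0.138, 0.748, 0.518 and 0.687 CPM, by 1.99 (SE 0.75, adjusted p = 0.0287), with overlapping libraries. The adjusted p lay between 0.0579 and 0.0866 without any 1 of replicates 1, 2 and 4 at nAT or replicates 2 and 4 at hAT. With only the 35S::PIF4 libraries HIPP23 did not pass the filter on low counts and was not tested. In Col-0 the difference was 0.54 (SE 0.88, adjusted p = 0.581). It became 3.32 (adjusted p = 0.0245) without replicate 3 of Col-0 at nAT, which held 10 of the 11 counts of its group. HIPP27 had 0 to 6 counts per library and a group mean of 0.037 to 0.132 CPM, too few to compare at this depth.

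HIPP26 (AT4G38580, chromosome 4 from 18034131 to 18035922), the stress-related member that binds ATHB29 and ACBP2, moved the other way in Col-0 and 35S::PIF4, but not in phyB. In Col-0 it had 52.9, 52.5, 44.5 and 48.5 CPM at nAT and 21.5, 20.002, 20.4 and 20.3 CPM at hAT. The sets lay far apart, and HIPP26 fell by 1.27 on the log2 scale (SE 0.09, adjusted p = 1.23e-12). With the offset for gene length it fell by 0.83 (adjusted p = 6.32e-10), below the fold threshold. In phyB the levels were 19.8, 22.2, 19.5 and 22.1 CPM at nAT and 21.2, 20.9, 26.4 and 27.5 CPM at hAT, a difference of 0.20 (SE 0.09, adjusted p = 0.0763) that was 0.27 (adjusted p = 0.00844) with the offset. Here too the 2 libraries with more pollen marker transcripts were the high ones. In 35S::PIF4 it had 29.8, 37.2, 29.99 and 38.0 CPM at nAT and 18.5, 17.6, 18.7 and 17.4 CPM at hAT, without overlap, a log2 fold change of -0.91 (SE 0.09, adjusted p = 5.83e-09) that is just under the fold threshold.

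The temperature response of HIPP26 in phyB differed from that in Col-0 by 1.47 on the log2 scale (SE 0.13, adjusted p = 1.76e-10), and by 1.1 with the offset for gene length. This is a positive signed difference (the log2 change in phyB minus that in Col-0), from -1.27 in Col-0 and 0.20 in phyB. It was the 1 gene of 6 called for that difference, where 10.6% of all genes were called higher and 21.6% lower (32.2% in all). For 35S::PIF4 against Col-0, 3 of 6 were called (HIPP21, HIPP24 and HIPP25, all positive), against 11.8% higher and 19.4% lower among all genes (31.1% in all). HIPP26 differed there by 0.36 (SE 0.13, adjusted p = 0.014), the value in 35S::PIF4 being less negative, and by -0.00 with the length offset. The HIPP24 difference was 1.64 (SE 0.70, adjusted p = 0.0399) and 0.77 (adjusted p = 0.359) without replicate 3 of Col-0 at nAT, and was called in 12 of 22 alternatives. These contrasts share the Col-0 libraries with each other and with the Col-0 temperature contrast.

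HIPP21 (AT5G17450, chromosome 5 from 5755222 to 5757003), one of the genes linked to cadmium tolerance, fell at hAT in phyB. It had 1.12, 0.447, 0.554 and 0.638 CPM at nAT and 0.359, 0.436, 0.158 and 0.281 CPM at hAT, so that every warm library was below every control library. These values came from 10 to 25 counts per library at nAT and 5 to 10 at hAT. The closest libraries, at 0.447 and 0.436 CPM, were nearly equal. The log2 fold change was -1.19 (SE 0.39, adjusted p = 0.0166). It lost its call without replicate 1 at nAT (-0.86, adjusted p = 0.102), without replicate 3 at hAT (-0.92, adjusted p = 0.0783) or with replicates 1 and 2 alone at hAT (-0.78, adjusted p = 0.212). In Col-0 it had 2.29, 1.94, 1.89 and 1.197 CPM at nAT and 0.812, 1.26, 1.14 and 1.28 CPM at hAT, a log2 fold change of -0.69 (SE 0.30, adjusted p = 0.0396) under the fold threshold, and of -0.52 (adjusted p = 0.121) with the length offset. In 35S::PIF4 the means were 0.746 ± 0.299 CPM at nAT and 1.1 ± 0.292 CPM at hAT, a difference of 0.53 (SE 0.32, adjusted p = 0.164), and the signed difference of this change from that of Col-0 was 1.22 (SE 0.44, adjusted p = 0.016).

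HIPP20 (AT1G71050, chromosome 1 from 26803097 to 26804292), the closest relative of HIPP22, was not called between temperatures in any genotype. The mean was 17.8 ± 2.56 CPM at nAT and 20.3 ± 0.818 CPM at hAT in Col-0, 8.40 ± 0.975 and 9.84 ± 1.16 CPM in phyB, and 11.2 ± 1.78 and 13.1 ± 0.898 CPM in 35S::PIF4 (SD, n = 4). The log2 fold changes were 0.19, 0.23 and 0.23 (SE 0.11 to 0.12, adjusted p = 0.112, 0.116 and 0.0821). With the offset for gene length they were 0.73 (adjusted p = 2e-07), 0.32 (adjusted p = 0.0156) and 0.31 (adjusted p = 0.0113), all under the fold threshold. The differences of the phyB and 35S::PIF4 responses from that of Col-0, 0.04 in both, were then -0.41 (adjusted p = 0.0166) and -0.42 (adjusted p = 0.0122).

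Like HIPP21, HIPP20 differed between phyB and Col-0 at both temperatures. At nAT it had 20.4, 17.8, 14.4 and 18.7 CPM in Col-0 and 9.65, 8.45, 8.19 and 7.29 CPM in phyB, with no overlap. It was lower in phyB at nAT (log2 fold change -1.08, SE 0.11, adjusted p = 2.96e-09) and at hAT (-1.04, SE 0.11, adjusted p = 4.78e-08). With the offset for gene length these values were -0.56 (adjusted p = 3.7e-05) and -0.96 (adjusted p = 2.71e-08), both under the fold threshold, and with phyB replicates 1 and 2 alone the hAT value was -0.92 (adjusted p = 1.94e-05). Without phyB replicate 3 it was -0.9995, also just short of the fold threshold. In 35S::PIF4 it was lower by -0.68 at nAT (SE 0.11, adjusted p = 4.64e-06) and by -0.63 at hAT (SE 0.11, adjusted p = 6.88e-05), and at both temperatures no library of 35S::PIF4 reached the Col-0 range. With the length offset the nAT value was -0.21 (adjusted p = 0.0624).

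**Figure D4:**
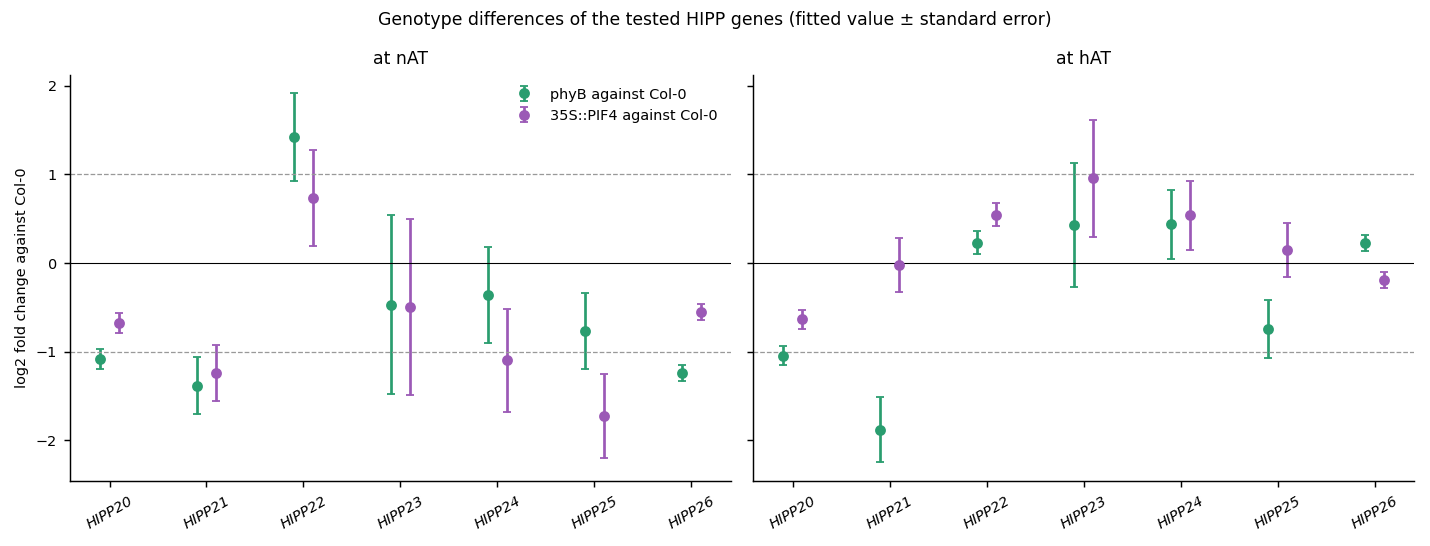
Fitted log2 fold change of phyB (green) and 35S::PIF4 (purple) against Col-0 (y axis) for the 7 tested genes (x axis) at nAT (left) and hAT (right). Bars are standard errors and dashed lines the fold threshold. HIPP20 and HIPP21 are below 0 in phyB at both temperatures, whereas HIPP26 is at -1.25 in phyB at nAT and 0.23 at hAT.

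Over the 7 tested genes, 3 were lower (HIPP20, HIPP21 and HIPP26) and 1 was higher (HIPP22) in phyB than in Col-0 at nAT, where 11.9% of all genes were lower and 21.2% higher (33.1% called). HIPP22 passed the filter through its hAT libraries. With only the libraries of the groups compared it was not tested, and the 3 lower genes were called. The p-values of HIPP22 at nAT and at hAT also rest on the libraries whose rise chose it, and are not free of that choice. In 35S::PIF4 2 were lower (HIPP21 and HIPP25) and 0 higher, against 12.2% lower and 19.3% higher among all genes (31.4% called). HIPP24 differed there by -1.1 (SE 0.58, adjusted p = 0.0871). It was called by DESeq2 (-1.21, adjusted p = 0.0488) and without Col-0 replicate 1 (-1.43, adjusted p = 0.0238), but was at -0.23 (adjusted p = 0.752) without Col-0 replicate 3. At hAT 2 were lower in phyB (HIPP20 and HIPP21), against 3.22% lower and 1.56% higher among all genes (4.78% called). None of 7 was called in 35S::PIF4 at hAT by edgeR or by DESeq2, against 1.61% lower and 1.47% higher (3.08% called), with 2 of 7, HIPP20 and HIPP22, at an adjusted p under 0.05 but under the fold threshold, the same 2 as at an unadjusted p under 0.05.

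HIPP21 was lower than in Col-0 in phyB at nAT (log2 fold change -1.39, SE 0.32, adjusted p = 0.000389) and at hAT (-1.89, SE 0.37, adjusted p = 0.0003), without overlap at either temperature. In 35S::PIF4 it was lower at nAT (-1.24, SE 0.31, adjusted p = 0.000893), again without overlap, and differed by -0.02 at hAT (SE 0.30, adjusted p = 0.968). HIPP26 was lower in phyB at nAT (-1.25, SE 0.09, adjusted p = 2.29e-12), which became -0.82 (adjusted p = 1e-09) with the length offset, and differed by 0.23 at hAT (SE 0.09, adjusted p = 0.0638). That hAT difference was 0.29 (adjusted p = 0.00921) with the length offset. In 35S::PIF4 it differed by -0.55 at nAT (SE 0.09, adjusted p = 2.79e-06; -0.18, adjusted p = 0.0397, with the length offset) and by -0.19 at hAT (SE 0.09, adjusted p = 0.157). HIPP25 differed in phyB by -0.77 at nAT (SE 0.43, adjusted p = 0.105) and -0.75 at hAT (SE 0.33, adjusted p = 0.0857), and the hAT value was -1.57 (adjusted p = 0.00595) with phyB replicates 1 and 2 alone.

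Levels can be compared between genes only per length, for which the deposited FPKM were used. At nAT HIPP26 and HIPP20 led in every genotype, at 44.7 and 17.9 FPKM in Col-0, 17.8 and 7.97 FPKM in phyB, and 28.4 and 10.5 FPKM in 35S::PIF4. HIPP22 was 0.366% of the summed FPKM of the 8 genes in Col-0, 2.32% in phyB and 0.981% in 35S::PIF4. At hAT its share was 29.3% in Col-0, 37.7% in phyB and 43.1% in 35S::PIF4. In Col-0 at hAT HIPP20 (19.3 ± 0.746 FPKM), HIPP26 (17.5 ± 0.542 FPKM) and HIPP22 (17.0 ± 0.813 FPKM, SD, n = 4 each) were close, and HIPP26 and HIPP22 did not differ beyond their spread. In phyB HIPP26 (20.5 ± 2.91 FPKM) and HIPP22 (16.3 to 24.7 FPKM) also overlapped, above HIPP20 (9.38 ± 1.1 FPKM). In 35S::PIF4 HIPP22 led with 24.8 ± 1.76 FPKM, above HIPP26 (15.3 ± 0.528 FPKM) and HIPP20 (12.4 ± 0.836 FPKM). HIPP21, HIPP23, HIPP24, HIPP25 and HIPP27 stayed at or below 2.86 FPKM on average in every group.

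**Figure D5:**
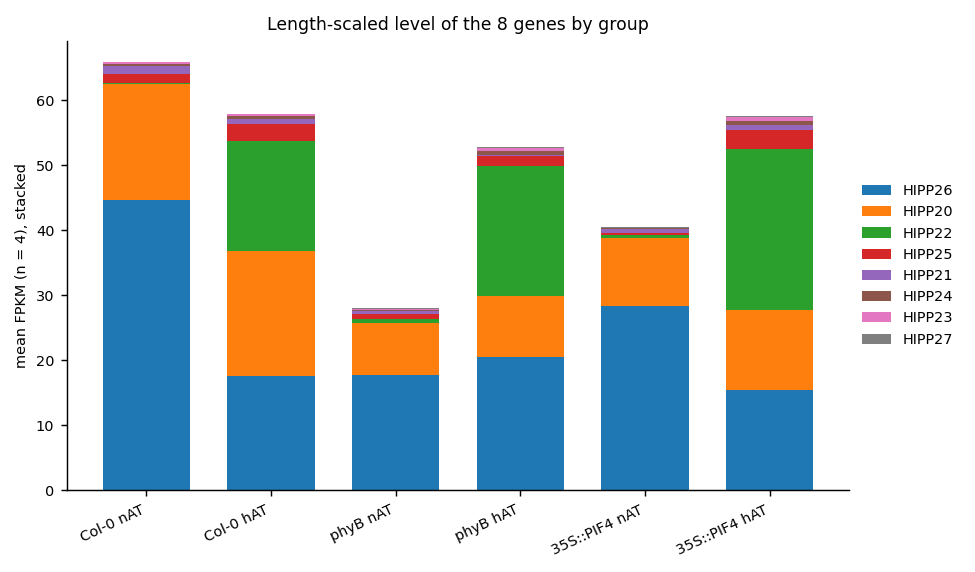
Mean FPKM (y axis, from 0) of the 8 genes, stacked, in the 6 groups (x axis, n = 4 each). The summed level was 65.9 ± 6.60 FPKM in Col-0 at nAT, 28.0 ± 1.11 for phyB and 40.5 ± 5.31 for 35S::PIF4 at that temperature, and 52.8 to 58.0 on average at hAT, where HIPP22 (green) makes up much of the bar.

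The upstream sequences of HIPP22 and HIPP25 are shown because these genes were higher at hAT in each genotype. They are the 300 bases before the annotated gene start in TAIR10, and capitals would mark a match to any of 4 motifs searched on both strands.
HIPP22, chr1:8138814-8139113, plus strand: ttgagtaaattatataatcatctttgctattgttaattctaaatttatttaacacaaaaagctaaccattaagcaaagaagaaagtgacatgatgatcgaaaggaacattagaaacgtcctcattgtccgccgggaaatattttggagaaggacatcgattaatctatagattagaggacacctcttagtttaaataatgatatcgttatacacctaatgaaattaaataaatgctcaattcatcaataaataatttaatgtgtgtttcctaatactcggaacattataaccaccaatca
HIPP25, chr4:16686819-16687118, minus strand: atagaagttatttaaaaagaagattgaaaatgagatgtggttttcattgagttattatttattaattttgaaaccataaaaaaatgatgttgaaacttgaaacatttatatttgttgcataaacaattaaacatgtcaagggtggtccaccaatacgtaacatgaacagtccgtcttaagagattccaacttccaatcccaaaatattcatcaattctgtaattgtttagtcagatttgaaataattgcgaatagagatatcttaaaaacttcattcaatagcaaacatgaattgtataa

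Neither window held the G-box CACGTG (present in 7.08% of 27407 windows of the same length before protein-coding genes) or the PBE-box CATGTG (13.1%), which PIF proteins bind, the heat shock element (0.482%), or GTAC, the core of the copper response element bound by SPL7 (39.7%). The PBE-box occurred before HIPP20 and HIPP24, and GTAC before HIPP21, HIPP23 and HIPP26. The window of HIPP27 held none of the 4. A match is a description of the letters, and its absence concerns this window only.

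Among the other 27 genes named HIPP or HPP, 15 were tested, and at hAT 5 rose and 0 fell in Col-0, 0 rose and 2 fell in phyB, and 3 rose and 0 fell in 35S::PIF4. Over all tested genes 24.2% rose and 13.4% fell in Col-0, 4.63% and 3.46% in phyB, and 8.5% and 2.48% in 35S::PIF4. Their median log2 fold changes were 0.63, 0.03 and 0.35, beside 0.14, -0.00 and -0.01 over all tested genes. HIPP05 rose in Col-0 from 10.2 ± 1.48 to 26.6 ± 1.14 CPM (log2 fold change 1.37, SE 0.09, adjusted p = 1.99e-13) and HIPP06 from 19.5 ± 2.16 to 48.9 ± 3.28 CPM (1.32, SE 0.07, adjusted p = 8.35e-15; SD, n = 4 each). HIPP08, below 1 CPM in each group, rose in Col-0 (2.32, SE 0.64, adjusted p = 0.00175) and in 35S::PIF4 (2.79, SE 0.61, adjusted p = 0.000436). Its mean was 0.872 and 0.787 CPM in these groups at hAT and at most 0.404 CPM elsewhere. It thus passed the filter on low counts mainly through the groups where it was high, and these p-values are not free of that. HIPP14 fell in phyB from 0.647 ± 0.132 to 0.0533 ± 0.0577 CPM (-3.52, SE 0.68), and in 35S::PIF4, where it had no count at nAT, it was at 0.0991 ± 0.115 CPM at hAT. Outside phyB at nAT its mean was at most 0.203 CPM, so it passed the filter through the group where it was high. Its fall is therefore a description without a test, although the counts above include it.

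Among other genes of metal handling, as among all tested genes (37.6% called in Col-0, 8.09% in phyB and 11% in 35S::PIF4), most calls between temperatures were in Col-0. There the median log2 fold change was -1.44 over the metallothioneins, -1.1 over the copper genes, 0.89 over the P-type ATPases, 0.39 over the glutathione genes and -0.19 over the ZIP, MTP and nicotianamine synthase genes, beside 0.14 over all tested genes. With the offset for gene length these medians were, in the same order, -0.97, -0.51, -0.05, -0.62 and -0.29, beside -0.00 over all tested genes. The positive medians of the P-type ATPases and glutathione genes were thus not kept. Of 4 tested metallothioneins, small cysteine-rich proteins that bind metals, 2 fell in Col-0: MT2B from 9812 ± 1672 to 1639 ± 18.1 CPM (log2 fold change -2.58, SE 0.08, adjusted p = 1.37e-19) and MT2A (-1.88, SE 0.12, adjusted p = 6.81e-14). Both kept a call with the length offset (-2.27 and -1.27). Of 9 tested genes for copper chaperones and uptake, 5 fell in Col-0, among them the copper transporter genes COPT2 (-1.56, SE 0.59, adjusted p = 0.018), COPT4 (-1.40, SE 0.33, adjusted p = 0.000475) and COPT1 (-1.34, SE 0.08, adjusted p = 2.35e-14), and with the length offset 0 of 9 were called. Of 7 tested heavy metal P-type ATPases, which pump metal ions across membranes, 3 rose in Col-0: PAA2 (1.94, SE 0.09, adjusted p = 2.68e-16), HMA4 (1.70, SE 0.12, adjusted p = 1.9e-12) and HMA2 (1.19, SE 0.13, adjusted p = 3.41e-09). With the offset 0 of 7 rose and 1 fell.

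In phyB and in 35S::PIF4, none of the tested copper genes, P-type ATPases or 6 glutathione and phytochelatin genes was called between temperatures, where 8.09% and 11% of all genes were. Of 12 tested ZIP, MTP and nicotianamine synthase genes, 1 rose and 3 fell in Col-0, 0 in phyB and 1 rose in 35S::PIF4 (ZIP9, 1.58, SE 0.23, adjusted p = 3.03e-06). With the length offset 1 rose and 2 fell in Col-0. The vacuolar zinc transporter gene MTPA2 rose in Col-0 (2.16, SE 0.17, adjusted p = 1.33e-11) and ZIP11 fell (-1.83, SE 0.12, adjusted p = 4.53e-13), and both calls held with the length offset (1.87 and -1.63). MT1C rose in 35S::PIF4 (1.11, SE 0.27, adjusted p = 0.00114). Neither ATHB29 nor ACBP2, the partners of HIPP26, was called between temperatures in any genotype.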

How the data were processed

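The authors trimmed reads with fqtools, mapped them to TAIR10 with Araport11 (with an aligner not given in the sources used here), and deposited featureCounts read counts per gene and FPKM per gene. The deposited FPKM are scaled between libraries as well as by gene length.

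Counts were filtered with filterByExpr, normalized by TMM and fitted in edgeR 4.0.16 (R 4.3.3) as 6 group means over 24 libraries, with 18 residual degrees of freedom. Adjusted p-values are Benjamini-Hochberg values of edgeR's quasi-likelihood test over 21312 genes. The thresholds for a call, an adjusted p under 0.05 with a fold change of 2 or more in either direction, were those of the study. Standard errors are the absolute log2 fold change over the square root of F. The script was tested on simulated data. Alternatives were RLE scaling, DESeq2 1.42.0, no filter, fewer groups, a replicate block, a gene length offset and leaving out libraries.

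The 8 genes and all lists were chosen with earlier results of these data known. Named list genes are up to 3 called in Col-0 with the largest change, and the largest in each other genotype. Of 32536 reference genes, 99.95% had the same coordinates in the count table. Promoter windows were read from the genome, and protein sequences were not analysed here.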

Additional observations from a re-analysis of the deposited data

Results flagged for a closer look

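In 2 of the 48 sets of 4 libraries, 1 library stood further from the others than Dixon's critical value allows, where chance flags about 1 in 20. HIPP23 in replicate 3 of Col-0 at nAT was at 0.674 CPM, with the next library at 0.0544 CPM. HIPP24 in replicate 2 of 35S::PIF4 at hAT was at 1.04 CPM, with the next at 0.738 CPM. Both genes had few counts.

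The temperature response differed between genotypes in 5 tests. As the log2 change in 35S::PIF4 minus that in Col-0, the difference was 1.22 for HIPP21 (adjusted p = 0.016), where a negative value in Col-0 stood against a positive value in 35S::PIF4. It was 1.64 for HIPP24 (adjusted p = 0.0399) and 1.88 for HIPP25 (adjusted p = 0.00484), whose values were larger in 35S::PIF4, and 0.36 for HIPP26 (adjusted p = 0.014), whose value was less negative in 35S::PIF4. For HIPP26 the change in phyB minus that in Col-0 was 1.47 (adjusted p = 1.76e-10). All 5 use the Col-0 libraries at nAT, which stand apart in gene length. The HIPP24 value was 1.27 (adjusted p = 0.118) with the length offset, and the HIPP26 difference in 35S::PIF4 was -0.0031 there.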

How the results depend on the processing

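Of 408 fold changes under alternatives other than leaving out a library, 380 were counted as the same. Tested values had to keep their direction and side of the threshold, so that values not called before and after are included. The untested HIPP22 values had to keep their direction and lie within 2 SE of the main value. With the offset for gene length the count of called genes went from 2 to 1 of 6 for Col-0 at hAT against nAT. Over all 21312 genes 3627 then rose and 2367 fell. For phyB against Col-0 at nAT it went from 4 to 2 of 7, with 2989 higher and 1928 lower over all genes. At hAT it went from 2 to 1 of 7, with 352 higher and 606 lower. The cause was not tested. This offset also turned values that were under the threshold for a call before and after: the response difference of HIPP20 was -0.42 for 35S::PIF4 and -0.41 for phyB, of HIPP25 in phyB -0.38 and of HIPP26 in 35S::PIF4 -0.0031, and the nAT difference of HIPP23 was 0.029 in 35S::PIF4 and 0.12 in phyB and that of HIPP24 in phyB 0.071. Alternatives for phyB at hAT were chosen after seeing the data. With replicates 3 and 4 alone, HIPP20 had a response difference of -0.090 and HIPP23 of -0.53, and HIPP23 differed from Col-0 at hAT by -0.99. With replicates 1 and 2 alone the response difference of HIPP25 was -0.80. In CPM in place of FPKM, the share of HIPP22 at hAT was 22.2% in Col-0 (29.3% in FPKM), 29.1% in phyB (37.7%) and 34.1% in 35S::PIF4 (43.1%), and 1.58% in phyB at nAT (2.32%).

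Leaving out 1 library, the count of called genes ranged from 1 (without Col-0 nAT replicate 4) to 3 (without replicate 3) in Col-0 and from 1 (without phyB hAT replicate 3) to 3 in phyB (2 without phyB nAT replicate 1). Over all tested genes, 5279 rose and 2955 fell at hAT in Col-0 without nAT replicate 4. Without nAT replicate 3 these numbers were 5402 and 3062. In phyB 913 rose and 792 fell without hAT replicate 3. Response differences ranged from -0.030 to 0.15 (HIPP20), -0.77 to 0.078 (HIPP22) and -1.33 to 2.34 (HIPP23) for 35S::PIF4, and from -0.040 to 0.13 (HIPP20), -1.88 to 1.29 (HIPP23), -0.071 to 1.13 (HIPP24) and -0.32 to 0.30 (HIPP25) for phyB. Against Col-0, HIPP21 in 35S::PIF4 at hAT ranged from -0.15 to 0.13, HIPP23 from -1.39 to 2.29 in 35S::PIF4 at nAT, from -0.86 to 2.31 in phyB at nAT and from -0.23 to 0.77 in phyB at hAT, and HIPP24 in phyB at nAT from -0.69 to 0.51.

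The replicate numbers did not pair the libraries (correlations of deviations -0.25 to 0.38 over 60 pairs of the same number). With the replicate block, 2 genes in place of 3 were called for the response of 35S::PIF4 minus that of Col-0, HIPP24 losing its call (adjusted p = 0.0558), and the other 8 counts were unchanged. Over all 21312 genes, 2482 were then called higher and 4130 lower for this difference of responses.

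Over all genes, the length offset changed the number higher in phyB at nAT from 4508 to 2989, and the number with a lower response in 35S::PIF4 from 4126 to 2626. For 35S::PIF4 at nAT it went from 4107 to 2547. It moved the median log2 fold change of Col-0 from 0.14 to -0.00. Low counts limit HIPP23, HIPP24 and HIPP27, HIPP21 in phyB, HIPP25 in 35S::PIF4 at nAT, and the fold sizes of HIPP22. With only the libraries of the groups compared, HIPP22 and HIPP24 did not pass the filter in the genotype comparisons at nAT, nor did HIPP23 in any comparison but the response of 35S::PIF4 minus that of Col-0, so that the HIPP22 call in phyB at nAT and the HIPP23 call in 35S::PIF4 could not be tested.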

Other observations

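The genes next to HIPP22 on chromosome 1 did not follow its size of change. ERF069, 3079 bases away, had log2 fold changes at hAT of -0.22 in Col-0, 0.38 in phyB and 0.50 in 35S::PIF4, and AT1G23000, 2993 bases away, had 1.21, 0.05 and 0.15.

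Within phyB at hAT, HIPP23 was at 0.449 and 0.785 CPM in replicates 1 and 2 and at 0.126 and 0.141 CPM in replicates 3 and 4, the opposite order to HIPP25 and to the pollen markers. The stamen and petal genes AP3 and PI summed to 29.1 and 30.2 CPM in the first pair of libraries and to 45.4 and 43.5 CPM in the second. HIPP22 was at 12.6, 14.8, 15.1 and 18.9 CPM in the same libraries.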
